A study of Homo sapiens with 15 samples.

Results

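The 39 genes described here encode the machinery that copies DNA and supplies its building blocks: the subunits of the MCM helicase, origin licensing and firing factors, the sliding clamp and its loader, replicative polymerases, single-strand binding proteins, lagging strand enzymes, and the enzymes of deoxynucleotide supply. They were taken by symbol from a list. All 39 were present in the total RNA table of 56475 gene symbols and in the footprint table of 20248. They were measured in MCF10-A cells (MCF-10A), a non-tumorigenic human mammary epithelial line. Cells received 20 nM control siRNA or 20 nM siRNA against eIF3e for 72 h, and total RNA and ribosome footprints were each sequenced from 3 libraries per siRNA. The protein eIF3e belongs to eIF3, a large initiation complex that helps the small ribosomal subunit reach mRNAs. A further 3 footprint libraries, 1 of each kind, came from 80S ribosomes of whole lysate, from eIF3B-bound ribosomes and from eIF3E-bound ribosomes, with no siRNA given for their groups. The labels do not say whether replicate libraries came from separate cultures, so p-values measure the spread between these libraries, which may be technical.

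Chromosome replication begins when the origin recognition complex, with CDC6 and CDT1, loads MCM2 to MCM7 onto DNA as an inactive double ring in G1. In S phase CDC45 and the GINS complex join the MCM ring and form the active CMG helicase, and polymerase alpha with primase starts each new strand. RFC then loads the PCNA clamp, which holds polymerases delta and epsilon on DNA, while FEN1 and LIG1 process and join lagging strand fragments. Ribonucleotide reductase (RRM1 and RRM2) and thymidylate synthase (TYMS) make the deoxynucleotides. Many of these genes are transcribed in proliferating cells around the G1 to S transition under the control of E2F factors.

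Depth limited what could be seen, because replication genes are a small part of these libraries. The 6 total RNA libraries held 4263767 to 5646270 counts and the 6 siRNA footprint libraries 1889543 to 3447360. Levels are given as CPM, counts per 1e6 of a library total scaled by TMM, which centres the libraries on most genes. The limit set by a count of 0 (3 counts) was 0.531 to 0.704 CPM in total RNA and 0.870 to 1.59 CPM in footprints, on library totals without that scaling and for counting error only. EIF3E, the siRNA target, had 187 to 217 CPM of total RNA in control cells against 20.5 to 25.8 CPM in depleted cells. Its footprints fell from 385 to 421 CPM to 40.4 to 63.9 CPM, with no overlap in either assay. All 9 basal mammary epithelial markers examined, among them KRT5, KRT14 and TP63, passed the count filter, with a summed total RNA level of 10919 to 11978 CPM in control and 10393 to 11140 CPM in eIF3e siRNA libraries. Of these 9, 2 rose and 3 fell in total RNA, and 2 rose and 5 fell in footprints. The 4 endothelial markers summed to at most 2.64 CPM, and the T cell gene CD3E had no total RNA count. Fibroblast markers (5 genes) summed to 30.1 to 39.3 CPM in control and 50.6 to 54.1 CPM in eIF3e siRNA libraries, and blood markers (5 genes) to 44.0 to 79.1 and 72.4 to 84.2 CPM. In footprints the fibroblast markers summed to 65.2 to 92.1 CPM in control and 135 to 160 CPM in eIF3e siRNA libraries, and the blood markers to 138 to 163 and 244 to 359 CPM. Luminal hormone receptors (2 genes) summed to 2.94 to 7.04 and 7.32 to 10.7 CPM of total RNA. The part of these markers in the results below was not tested. RPPH1, the RNA of RNase P, took 9.33 to 12.3% of control and 6.37 to 7.10% of eIF3e siRNA total RNA counts. The share of 7SL RNA varied more, at 4.36, 3.91 and 2.44% in control and 1.02, 4.07 and 0.126% in eIF3e siRNA libraries.

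The promoters of 33 of the 39 genes were found in RefSeq (GRCh38.p14), as windows of 300 bases from 250 before to 50 after an annotated start. An E2F-type motif (TTTCCCGC, TTTGGCGC, TTTCGCGC or TTTGCCGC, on either strand) lay in a window of 17 of these 33 genes, or 51.5%. The same letters were found in 3.99% of 27305 genes with a promoter window and in 6.80% of the 8443 of them that were tested in total RNA. A CCAAT box (CCAAT, either strand) lay in 20 of the 33 genes, or 60.6%, against 39.7% of all genes with a window and 43.8% of the tested ones. The cell cycle homology element TTTGAA was found in 1, RRM1, or 3.03%, against 18.2% and 13.2%. A match is a description of these letters and shows no binding. Of the 10 members that rose in total RNA and had a window, 6 held an E2F-type motif.

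Promoter windows of 4 genes are shown because their RNA levels rose after eIF3e siRNA and each carries an E2F-type motif; they were chosen after the values were seen. They are MCM2 (GRCh38.p14, chr3:127598161-127598460, + strand), MCM3 (chr6:52284693-52284992, − strand), MCM7 (chr7:100101348-100101647, − strand) and PCNA (chr20:5126573-5126872, − strand). MCM7 and PCNA also have other annotated starts, whose windows held no E2F-type motif and are not shown. Each window is written 5′ to 3′ on the strand of its gene, and capitals mark the E2F-type motifs. In MCM2 TTTCGCGC and its reverse complement overlap, just after the start.
MCM2: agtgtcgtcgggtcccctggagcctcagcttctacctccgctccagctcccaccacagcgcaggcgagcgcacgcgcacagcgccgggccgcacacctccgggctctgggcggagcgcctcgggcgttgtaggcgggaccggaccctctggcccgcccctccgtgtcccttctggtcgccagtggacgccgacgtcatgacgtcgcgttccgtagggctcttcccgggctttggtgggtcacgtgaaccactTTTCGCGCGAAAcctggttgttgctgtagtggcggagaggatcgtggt
MCM3: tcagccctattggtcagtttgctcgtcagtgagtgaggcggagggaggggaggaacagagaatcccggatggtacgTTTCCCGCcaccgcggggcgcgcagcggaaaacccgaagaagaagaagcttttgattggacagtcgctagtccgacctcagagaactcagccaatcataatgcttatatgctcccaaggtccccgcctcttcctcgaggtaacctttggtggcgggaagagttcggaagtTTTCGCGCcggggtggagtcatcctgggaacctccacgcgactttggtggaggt
MCM7: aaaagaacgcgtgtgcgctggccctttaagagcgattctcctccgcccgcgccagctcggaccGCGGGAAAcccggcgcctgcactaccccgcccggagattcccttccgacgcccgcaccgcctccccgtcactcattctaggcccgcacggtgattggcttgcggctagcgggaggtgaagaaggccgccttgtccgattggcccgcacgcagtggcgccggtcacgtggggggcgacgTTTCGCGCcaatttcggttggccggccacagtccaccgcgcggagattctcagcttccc
PCNA: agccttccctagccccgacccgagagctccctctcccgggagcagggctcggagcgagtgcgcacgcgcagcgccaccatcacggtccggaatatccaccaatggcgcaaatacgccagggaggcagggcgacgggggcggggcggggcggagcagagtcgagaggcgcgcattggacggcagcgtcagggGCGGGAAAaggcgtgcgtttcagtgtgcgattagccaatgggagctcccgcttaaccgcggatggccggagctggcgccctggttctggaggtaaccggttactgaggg

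After eIF3e siRNA the RNA of MCM2, MCM3, MCM4, MCM7, MCM10, CDC45, PCNA, POLD1, POLE, FEN1 and LIG1 rose, and that of RFC1 and RRM1 fell. Of the 34 members with enough counts to be tested in total RNA, 11 rose and 2 fell (edgeR, adjusted p under 0.05), against 18.8% of all 11719 genes tested that rose and 18.7% that fell. The count filter can let in a gene through the group where it is high. Of the 11, MCM10 (control counts 2, 4 and 6) and CDC45 (6, 9 and 10) passed it through the eIF3e siRNA libraries. The median log2 change of the 34 was 0.45, against 0.02 over all genes tested, and 27 of the 34 estimates were above 0. The summed level of the 39 genes was 341, 350 and 330 CPM in the control libraries and 409, 435 and 428 CPM in the eIF3e siRNA libraries, with no overlap. In 17 of the 34 every eIF3e siRNA library was above every control library, against 25.4% of all genes tested, and in 2 every one was below, against 24.2%. CDC45, GINS1 and MCM10, which passed the filter through the eIF3e siRNA libraries, are among the 17. Without eIF3e siRNA library 2, 7 members rose, and without control library 2 or eIF3e siRNA library 1 or 2, 1 fell. With total-count scaling, under which all genes moved upwards by 0.16 (log2), 14 rose and none fell. In bulk samples a change in the share of cycling cells and a change in RNA per cell cannot be told apart.

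Ribosome footprints of these genes changed less clearly. The 34 members tested here hold PRIM2 in place of MCM10, which was tested only in total RNA. Of 34 members tested in footprints 1 rose and none fell, against 10% and 8.46% of the 9228 genes tested. The median log2 change was 0.17, against −0.01 over all genes, and 3 of the 34 had an unadjusted p under 0.05, against 2754 of the 9228 genes. The summed footprint level was 763, 645 and 974 CPM in control libraries 1, 2 and 3 and 912, 787 and 783 CPM in the eIF3e siRNA libraries, and these ranges overlap. All eIF3e siRNA libraries lay above all controls in 3 members, CDC45, MCM3 and ORC6, against 17.1% of all genes tested, and below in 3, CDC6, RFC1 and RFC5, against 16.5%. CDC45 passed the count filter only through the eIF3e siRNA libraries and RFC5 only through the controls, in each case where it was high. No member was called when any library but control library 3 was left out. The replicate spread was wider in footprints, with a biological coefficient of variation of 0.245 against 0.155 in total RNA.

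**Figure D1:**
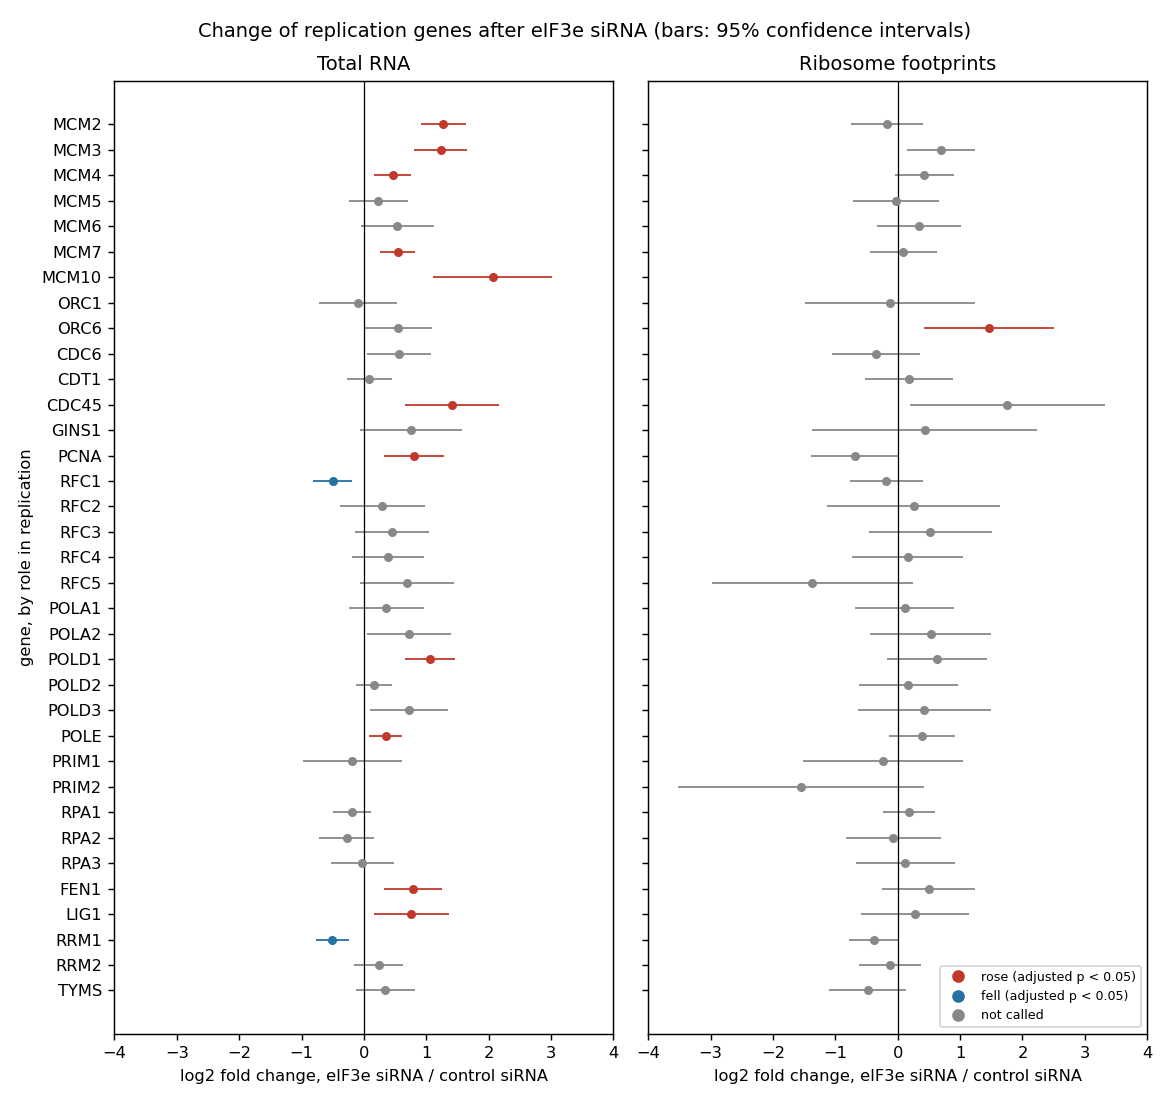
Log2 fold change of each tested replication gene (eIF3e siRNA over control siRNA, horizontal axis) in total RNA and in footprints, with 95% confidence intervals, from 3 libraries per group. The estimates in total RNA run from −0.51 (RRM1) to 2.06 (MCM10), and footprint intervals are wider.

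Of the MCM helicase subunits, which form the ring that opens DNA, 4 of 6 rose in RNA and all 6 estimates were above 0. MCM2 RNA was 11.3, 9.15 and 9.81 CPM in control libraries and 20.1, 27.1 and 25.8 CPM in eIF3e siRNA libraries, a log2 change of 1.27 ± 0.17 (SE, n = 3 per group, edgeR adjusted p = 3.04e-05), or 2.42-fold. MCM3 RNA was 6.78, 7.39 and 5.25 CPM against 14.6, 14.2 and 17.1 CPM, a log2 change of 1.23 ± 0.20 (adjusted p = 0.000191). For both subunits the lowest eIF3e siRNA library was well above the highest control. MCM4 went from 17.9, 21.1 and 21.4 CPM to 27.3, 29.7 and 26.2 CPM (log2 change 0.46 ± 0.14, adjusted p = 0.0155), and MCM7 from 17.6, 20.4 and 20.5 CPM to 30.1, 27.7 and 27.4 CPM (0.54 ± 0.14, adjusted p = 0.00524). These groups did not overlap either, but the step was smaller, at 1.37-fold and 1.45-fold. MCM5 (0.23 ± 0.23) and MCM6 (0.54 ± 0.28) did not pass the test. The MCM4 call was lost without control library 1 (adjusted p = 0.0647) without eIF3e siRNA library 2 (0.0633) and with the DESeq2 Wald test (0.0864), and the calls of MCM2, MCM3 and MCM7 held in all 15 alternatives that gave a value.

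**Figure D2:**
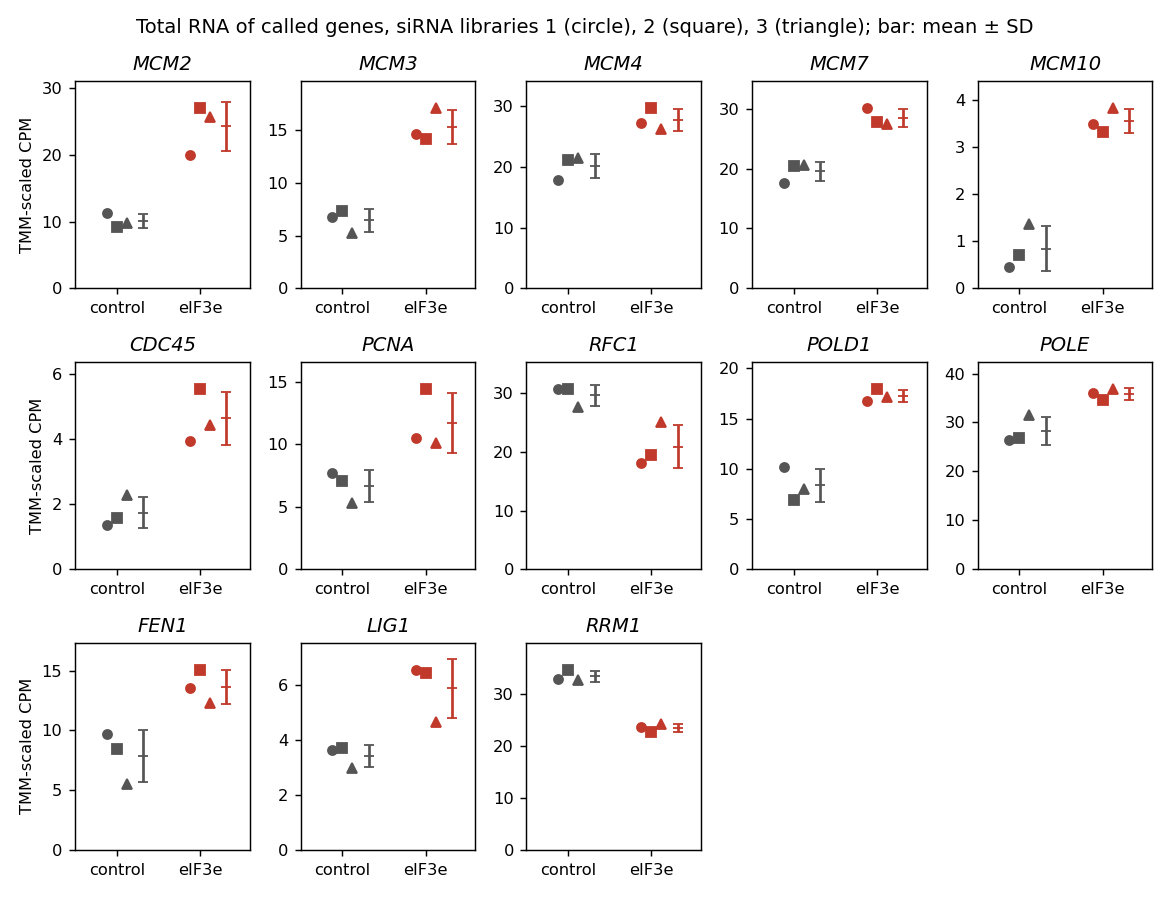
Total RNA level in CPM (vertical axis, TMM-scaled, linear from 0) of the 13 replication genes called in total RNA, by siRNA and library; bars are mean ± SD of 3 libraries. The 11 genes that rose lie wholly above their controls, and RFC1 and RRM1 wholly below.

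In footprints the 6 MCM subunits did not move as one, and none passed the test. MCM3 footprints were 25.3, 21.8 and 26.1 CPM in control and 39.9, 44.0 and 34.5 CPM in eIF3e siRNA libraries, a log2 change of 0.69 ± 0.27 with adjusted p = 0.0727. All 3 eIF3e siRNA libraries were above the controls. MCM2 footprints were 48.9, 26.3 and 57.6 CPM against 52.3, 24.7 and 40.4 CPM, a log2 change of −0.17 ± 0.28 with a 95% confidence interval of −0.75 to 0.41. Here the second library of each siRNA was the lowest and the groups overlapped fully. MCM4 (0.43 ± 0.23), MCM5 (−0.03 ± 0.34), MCM6 (0.34 ± 0.33) and MCM7 (0.09 ± 0.26) also overlapped between groups. Among the controls all 6 subunits were highest in library 3, at 57.6 CPM for MCM2, 26.1 for MCM3, 53.2 for MCM4, 24.1 for MCM5, 24.6 for MCM6 and 67.9 for MCM7.

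Of the origin firing factors, CDC45 and MCM10, which activate the loaded helicase, rose in RNA from low levels. CDC45 RNA was 1.36, 1.58 and 2.28 CPM in control and 3.93, 5.54 and 4.43 CPM in eIF3e siRNA libraries (log2 change 1.41 ± 0.36, adjusted p = 0.00531). MCM10 RNA was 0.452, 0.704 and 1.37 CPM against 3.49, 3.33 and 3.83 CPM (2.06 ± 0.45, adjusted p = 0.0019), on 62 counts in all. Both stood apart between groups and kept their call in all 14 alternatives that gave a value. However, both passed the count filter through the eIF3e siRNA libraries, where they were high. Their control counts were 6, 9 and 10 for CDC45 and 2, 4 and 6 for MCM10. Such a filter favours a rise, so the separation and the kept calls are weak support. The alternative with a higher minimum count left both genes out. CDC45 footprints were 3.67, 0.454 and 2.95 CPM in control and 6.70, 10.6 and 7.14 CPM in eIF3e siRNA libraries. These groups did not overlap, but here too CDC45 passed the count filter only through the eIF3e siRNA libraries. The footprint change of 1.75 ± 0.77 did not pass the test (adjusted p = 0.115). GINS1, a subunit of the GINS complex, gave 0.76 ± 0.38 in RNA and 0.43 ± 0.88 in footprints. GINS2, GINS3 and GINS4 had too few counts for a test in either assay, with 45, 43 and 41 total RNA counts over 6 libraries. MCM10 was not tested in footprints, where it had 38 counts.

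Among the licensing factors, ORC6, the smallest subunit of the origin recognition complex, was the one member whose footprints rose. ORC6 footprints were 4.07, 4.09 and 6.89 CPM in control and 15.9, 12.7 and 12.8 CPM in eIF3e siRNA libraries, a log2 change of 1.46 ± 0.51 (adjusted p = 0.0425) with a 95% confidence interval of 0.42 to 2.5. The groups were far apart, but the control counts were 10, 9 and 14. Its RNA was 3.62, 5.81 and 4.56 CPM against 6.11, 7.10 and 7.45 CPM, a change of 0.55 ± 0.26 that did not pass the test. The footprint call was lost without control library 1 (adjusted p = 0.12) or 2 (0.151) and without eIF3e siRNA library 1 (0.127), 2 (0.0788) or 3 (0.089). It held in 5 of 13 alternatives, with adjusted p from 0.0311 to 0.151. CDC6, the ATPase that helps to load the MCM ring, had 6.55, 4.22 and 7.07 CPM of RNA in control and 9.16, 8.65 and 8.26 CPM in eIF3e siRNA libraries. Its footprints ran the other way, from 22.8, 20.4 and 19.7 CPM to 16.9, 18.9 and 13.7 CPM. Neither change passed the test (0.56 ± 0.24, adjusted p = 0.0783, and −0.35 ± 0.35, adjusted p = 0.551). CDT1 gave 0.09 ± 0.17 and the ATPase subunit ORC1 −0.09 ± 0.29 in RNA, and 0.18 ± 0.35 and −0.13 ± 0.66 in footprints.

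Within the clamp and its loader, the RNA of the clamp rose and that of the largest loader subunit fell. PCNA RNA was 7.68, 7.04 and 5.25 CPM in control and 10.5, 14.4 and 10.1 CPM in eIF3e siRNA libraries (0.80 ± 0.23, adjusted p = 0.0115). The call was lost without control library 3 (adjusted p = 0.0518) or eIF3e siRNA library 2 (0.0745). RFC1 RNA was 30.7, 30.8 and 27.6 CPM against 18.1, 19.5 and 25.2 CPM (−0.50 ± 0.15, adjusted p = 0.0133), with eIF3e siRNA library 3 closest to the controls. That call was lost without control library 2 (adjusted p = 0.0537), without eIF3e siRNA library 1 (0.0732) or 2 (0.0502), and with total-count scaling (0.113). The small loader subunits RFC2 (0.29 ± 0.32), RFC3 (0.45 ± 0.28), RFC4 (0.38 ± 0.27) and RFC5 (0.69 ± 0.36) did not pass the test.

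PCNA footprints did not pass the test. They were 31.0, 15.0 and 44.3 CPM in control and 22.0, 17.5 and 16.4 CPM in eIF3e siRNA libraries (−0.69 ± 0.34, adjusted p = 0.177). The controls spread widely, and control library 2 was below all 3 eIF3e siRNA libraries. RFC5 footprints were 4.89, 5.00 and 10.3 CPM against 1.91, 2.18 and 3.57 CPM (−1.37 ± 0.79, adjusted p = 0.253). These groups did not overlap, on 68 counts in all. RFC1 footprints lay within a narrow band, 28.5, 29.5 and 27.6 CPM in control and 25.2, 25.5 and 24.7 CPM in eIF3e siRNA libraries (−0.18 ± 0.28).

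**Figure D3:**
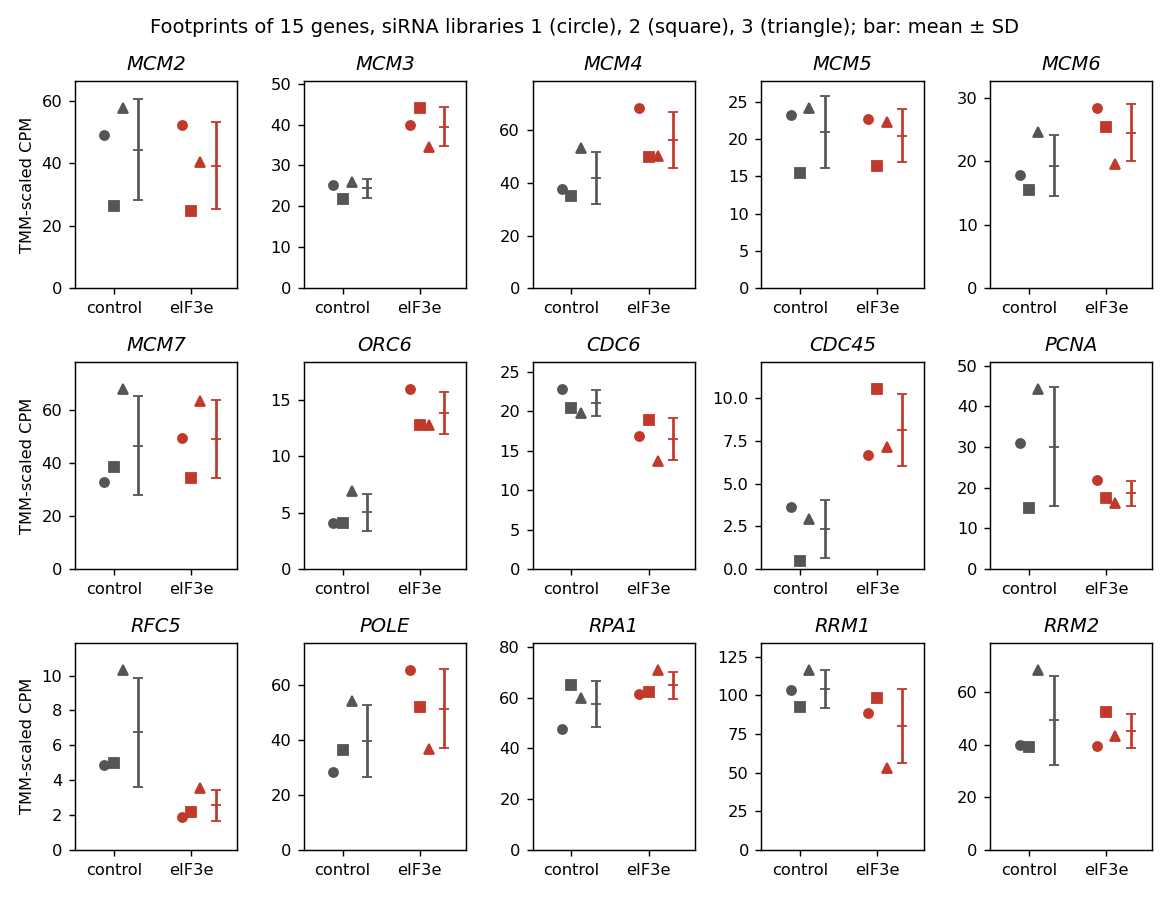
Footprint level in CPM (vertical axis, TMM-scaled, linear from 0) of 15 replication genes by siRNA and library; bars are mean ± SD of 3 libraries. ORC6, MCM3 and CDC45 lie above their controls, CDC6 and RFC5 below, and MCM2, MCM5 and PCNA overlap.

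Of the polymerase subunits, the catalytic subunits of polymerases delta and epsilon, which extend the lagging and leading strands, rose in RNA. POLD1 RNA was 10.2, 6.86 and 7.99 CPM in control and 16.8, 18.0 and 17.1 CPM in eIF3e siRNA libraries (1.06 ± 0.19, adjusted p = 0.000376), or 2.09-fold, and the call held in all 15 alternatives that gave a value. POLE RNA was 26.4, 26.7 and 31.5 CPM against 36.0, 34.6 and 36.9 CPM (0.35 ± 0.13, adjusted p = 0.0386). The POLE step was small and its call was lost when any library but control library 3 was left out (adjusted p = 0.114 and 0.138 without control 1 and 2, and 0.0962, 0.0642 and 0.0985 without eIF3e siRNA 1, 2 and 3). It was also lost without a low-count filter (0.093), with the DESeq2 Wald test (0.163) and with a term for the level of 7SL RNA (0.209), and held in 7 of 15 alternatives. The accessory subunits POLD2 (0.16 ± 0.14) and POLD3 (0.72 ± 0.30), and the polymerase alpha subunits POLA1 (0.36 ± 0.29) and POLA2 (0.72 ± 0.32), did not pass the test. Neither did the catalytic primase subunit PRIM1 (−0.18 ± 0.38). POLE2 and PRIM2 had 11 and 41 total RNA counts and were not tested there. In footprints 8 polymerase and primase genes were tested and none passed, with POLD1 at 0.63 ± 0.39 and POLE at 0.38 ± 0.26. POLD1 footprints were 22.8, 7.72 and 11.8 CPM against 22.6, 16.0 and 27.1 CPM, and control library 1 lay among the eIF3e siRNA libraries.

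The single-strand binding complex RPA was the role in which no RNA estimate was above 0. RPA1, RPA2 and RPA3 gave −0.20 ± 0.14, −0.28 ± 0.21 and −0.03 ± 0.24 in RNA, and 0.18 ± 0.20, −0.07 ± 0.37 and 0.12 ± 0.39 in footprints. None passed the test. For RPA1, the largest and DNA-binding subunit, the 95% confidence interval of the RNA change was −0.50 to 0.11, which leaves out the steps seen for MCM2 and POLD1.

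Both lagging strand enzymes rose in RNA. FEN1, the flap nuclease, was at 9.72, 8.44 and 5.48 CPM in control and 13.5, 15.1 and 12.3 CPM in eIF3e siRNA libraries (0.78 ± 0.22, adjusted p = 0.01). LIG1, the ligase that seals the fragments, was at 3.62, 3.69 and 2.97 CPM against 6.54, 6.43 and 4.63 CPM (0.76 ± 0.29, adjusted p = 0.0451). The groups did not overlap for either gene. FEN1 kept its call in all 15 alternatives, while LIG1 lost it without control library 1 (adjusted p = 0.083), 2 (0.0854) or 3 (0.123) and without eIF3e siRNA library 1 (0.144) or 2 (0.127). LIG1 also lost it without a low-count filter (0.11) and with the DESeq2 Wald test (0.177), and kept it in 7 of 14 alternatives. Their footprint changes were 0.50 ± 0.37 and 0.28 ± 0.43, with overlapping groups.

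None of the 3 nucleotide supply genes was called higher, and 1 fell. RRM1, the large subunit of ribonucleotide reductase, fell in RNA from 32.8, 34.7 and 32.6 CPM to 23.6, 22.6 and 24.2 CPM (−0.51 ± 0.12, adjusted p = 0.00424), or to 0.703 of control. The replicates were tight, and the call held in 14 of 15 alternatives and was lost with total-count scaling (−0.35, adjusted p = 0.0779). RRM2, the small subunit, which is known to be made in S phase, gave 0.24 ± 0.18 and TYMS 0.34 ± 0.22, and neither passed the test. RRM1 footprints were 103, 92.2 and 117 CPM in control and 88.4, 98.6 and 53.2 CPM in eIF3e siRNA libraries (−0.38 ± 0.20, adjusted p = 0.189). The eIF3e siRNA library 3 was far below the others. RRM2 and TYMS footprints gave −0.12 ± 0.24 and −0.48 ± 0.30.

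Footprints per mRNA, the change in footprints over the change in RNA tested as an interaction over 12 libraries, had no member past the threshold. None of 33 tested members rose or fell (edgeR), 5 had an unadjusted p under 0.05, and DESeq2 called 1, MCM2. Over all 9055 genes tested 1091 had an unadjusted p under 0.05, 0.144% rose and 0.166% fell. The median log2 change of the members was −0.19, against 0.01 over all genes, and 22 of 33 estimates were below 0. All 6 MCM subunits were below 0, from −0.03 ± 0.28 for MCM4 to −1.44 ± 0.39 for MCM2. Over the alternatives MCM4 ran from −0.24 to 0.16 and MCM6 from −0.40 to 0.03, while MCM2, MCM3, MCM5 and MCM7 stayed below 0. MCM2 had the smallest p of the members (edgeR adjusted p = 0.121), with a 95% confidence interval of −2.25 to −0.63. PCNA followed at −1.49 ± 0.46 (adjusted p = 0.182), then RFC5 at −2.05 ± 0.73 (adjusted p = 0.244), CDC6 at −0.91 ± 0.41 (adjusted p = 0.387) and TYMS at −0.83 ± 0.39 (adjusted p = 0.402). ORC6 lay at the other end, at 0.92 ± 0.53 (adjusted p = 0.515).

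One control footprint library stood highest for most of these genes. Control library 3 was the highest of the 3 controls in 23 of the 34 tested members, or 67.6%, against 35.9% of all genes tested. Control library 2 was the lowest in 18, but the share of all genes in which it was lowest was not computed. It was the highest in 11.8% of the members, against 27.9% of all genes tested. Without control footprint library 3 the median change of the members in footprints per mRNA was −0.003, and in footprints it was 0.24. Without control library 2 the footprint median was 0.01 and without eIF3e siRNA library 1 it was 0.02. The part of these libraries in the footprint results was not tested beyond these values. MCM2 in footprints per mRNA stayed below 0 in every alternative, from −1.71 to −1.17, with adjusted p from 0.0387 to 0.291. PCNA in footprints per mRNA was at −1.13 without control footprint library 3 and at −1.81 without control footprint library 2.

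Other genes of replication and of the cell cycle were taken from lists, and their counts are set against the 18.8% of all genes tested that rose and 18.7% that fell in total RNA, and the 10% and 8.46% in footprints. Of 36 tested licensing, fork and chromatin partners, 15 rose and 1 fell in total RNA, with a median log2 change of 0.30. Leaving out control library 1, or eIF3e siRNA library 2, gave 9 rises. TICRR, which helps CDC45 onto the helicase, rose by 1.98 ± 0.28 (adjusted p = 4.36e-05), the origin recognition subunit ORC5 by 1.39 ± 0.22 (adjusted p = 0.000121) and RNASEH2A, the catalytic subunit of RNase H2, by 1.37 ± 0.25 (adjusted p = 0.000401). ORC5 was also the 1 of 33 partners whose footprints rose, by 1.28 ± 0.36 (adjusted p = 0.0106). Its RNA was 4.75, 6.51 and 5.70 CPM in control and 12, 17.1 and 15.9 CPM in eIF3e siRNA libraries, and its footprints 6.52, 14.5 and 15.8 CPM against 23.9, 32.7 and 32.4 CPM. ORC5 thus stood apart between groups in both assays, though no partner was called in footprints without control library 1 or eIF3e siRNA library 3.

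Nucleotide synthesis beyond the 3 members moved in both directions. Of 31 tested genes 10 rose and 5 fell in total RNA, with a median of 0.11. PFAS, an enzyme of purine synthesis, rose by 2.04 ± 0.24 (adjusted p = 7.35e-06), CAD, which starts pyrimidine synthesis, by 1.45 ± 0.16 (adjusted p = 1.36e-05), and the nucleotide kinase CMPK1 fell by 0.82 ± 0.10 on the log2 scale (adjusted p = 1.6e-05). In footprints 2 of 28 rose and 1 fell: CAD (1.29 ± 0.23, adjusted p = 0.000125), the thymidylate kinase DTYMK (2.06 ± 0.64, adjusted p = 0.0209) and IMPDH2, an enzyme of guanine nucleotide synthesis (−0.54 ± 0.13, adjusted p = 0.00304). Without control footprint library 3, 5 rose and 2 fell.

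Regulators of the G1 to S step gave 6 rises and 3 falls among 24 genes in total RNA, with a median of 0.08, and 3 rises without control library 3. CDC25A, the phosphatase that activates S phase kinases, rose by 1.1 ± 0.24 (adjusted p = 0.00207). RBL2, a pocket protein that represses E2F targets, and CDKN1A, the kinase inhibitor p21, fell by 0.54 ± 0.11 (adjusted p = 0.000729) and 0.49 ± 0.11 (adjusted p = 0.00233) on the log2 scale. CDKN1A was also the 1 of 20 regulators called in footprints, at −0.99 ± 0.15 (adjusted p = 8.01e-06). Of 20 genes of G2 and M phase 3 rose and none fell in total RNA, with a median of 0.23: CCNB1 (0.71 ± 0.14, adjusted p = 0.000704), MKI67 (0.61 ± 0.12, adjusted p = 0.000925) and CDK1 (0.46 ± 0.14, adjusted p = 0.0187). Without control library 3 this became 6. In footprints 2 of the 20 rose and 2 fell, with MKI67 at 1.07 ± 0.14 (adjusted p = 1.56e-06), TPX2 at −0.56 ± 0.14 (adjusted p = 0.00445) and TOP2A at −0.57 ± 0.15 (adjusted p = 0.00646). Footprints per mRNA gave no call in any of these 4 lists.

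The single whole-lysate library, for whose group no siRNA is given, held a larger share of replication gene footprints than the siRNA libraries. The 39 genes took 0.313% of its counts, and 0.293% and 0.302% of the eIF3B-bound and eIF3E-bound counts, against 0.0664 to 0.105% in the siRNA footprint libraries. Of 25 members with at least 50 counts in 1 of the lysate and 3 control siRNA libraries, all 25 were above the control mean and 17 were at least 2-fold higher. Over all 5869 genes compared, 17.5% were at least 2-fold higher and 20.7% at least 2-fold lower, and no member was in the second class. The median ratio of the 25 was 2.95, against 1.00 over all genes. This filter favours genes that are high in lysate: CDC45, CDT1, LIG1, POLD2, RFC2, RFC4 and RPA3, 7 of the 25, reached 50 counts only there. Of the 18 members that reached 50 counts in a control library, a filter chosen after the data were seen, all 18 were above the control mean and 11 were at least 2-fold higher, with a median ratio of 2.98. Over the 5437 genes that passed it, 11.8% were at least 2-fold higher and 22.3% at least 2-fold lower, with a median of 0.937. With 1 lysate library there is no test, and the siRNA treatment and any difference in culture or library cannot be told apart. The comparison was added after the data were seen.

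CDC45, MCM3 and MCM6 had the largest ratios of the 25. CDC45, like RFC2 and POLD2 below, reached 50 counts only in lysate, which favours a high ratio. On a scale common to the 4 libraries, CDC45 was at 35.6 CPM in lysate (exact 95% Poisson interval 26.8 to 46.4) and at 3.93, 0.503 and 3.30 CPM in control libraries, a ratio of 13.8 on 55 lysate counts. MCM3 was at 190 CPM (169 to 213) against 27.1, 24.2 and 29.1 CPM, a ratio of 7.10. MCM6 was at 137 CPM (119 to 156) against 19.2, 17.1 and 27.5 CPM, a ratio of 6.42. In each the interval lay above all 3 controls, as it did for 22 of the 25 genes, and the intervals cover counting error only. The 22 include all 7 genes that reached 50 counts only in lysate, where the filter favours this. The share over all genes compared was not computed. Next came RFC2 (4.66), MCM5 (4.22), POLD2 (4.16) and POLD1 (4.03), and the other MCM subunits had ratios of 3.78 (MCM7), 3.61 (MCM4) and 2.95 (MCM2). TYMS was 3.4-fold and RRM2 3.20-fold higher, while RRM1 was 1.81-fold, CDC6 1.55-fold and POLE 1.38-fold higher. POLE, POLA1 and RPA2 had intervals that reached the controls, and RPA2 had a ratio of 1.01. These are among the 18 members that reached 50 counts in a control library.

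Other cell cycle genes were compared in the same way, with the filter that favours lysate. Under this filter 17.5% of all genes compared were at least 2-fold higher and 20.7% at least 2-fold lower. How many genes of each list passed it only through lysate was not computed. The counts of higher genes below may therefore be raised by the filter. Of 18 genes of G2 and M phase 16 were at least 2-fold higher in the lysate library, with a median ratio of 3.57, and of 16 licensing, fork and chromatin partners 11, with a median of 2.92. Of 23 nucleotide synthesis genes 11 were at least 2-fold higher, with a median of 1.87. Of 9 regulators of the G1 to S step 3 were at least 2-fold higher and 1 at least 2-fold lower, with a median of 1.85. Basal epithelial markers went the other way, with 1 of 9 at least 2-fold higher, 3 at least 2-fold lower and a median ratio of 0.591. Against the eIF3e siRNA libraries in place of the controls, 18 of 28 members were at least 2-fold higher in lysate, with a median ratio of 2.37. Over all genes in that comparison 14.1% were at least 2-fold higher, with a median of 1.01. There too a gene could pass the filter through lysate alone.

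**Figure D4:**
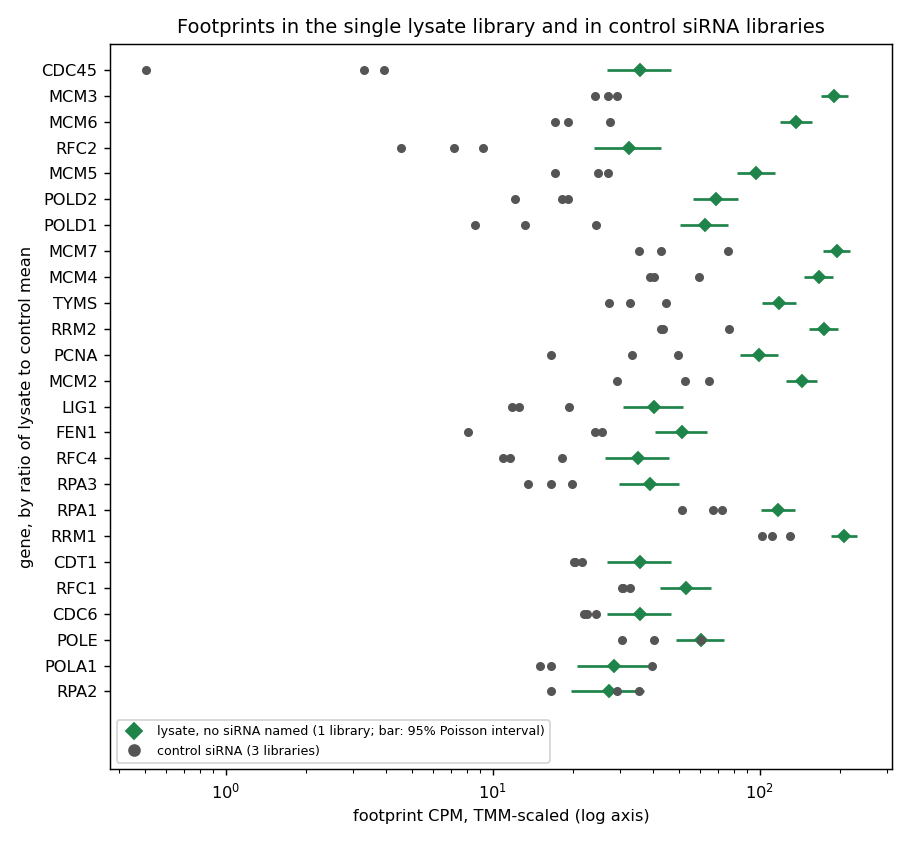
Footprint CPM (horizontal log axis, TMM-scaled over the 4 libraries) of 25 replication genes in the single lysate library (diamond, exact 95% Poisson interval) and in the 3 control siRNA libraries (dots), ordered by ratio. CDC45, which reached 50 counts only in lysate, has the largest ratio, at 13.8, and RPA2 the smallest, at 1.01.

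Footprints of ribosomes bound by eIF3 subunits were set against the lysate footprints of the same kind of cells, with 1 library each and no test. For 17 members that reached 100 counts in any of these libraries, the median eIF3B-bound ratio was 1.04, against 0.996 over 3575 genes. At least 1.5-fold higher were 1 member, POLE, against 17.2% of all genes, and at least 1.5-fold lower 4 members, MCM3, MCM4, MCM6 and POLD1, against 18.8%. For eIF3E-bound ribosomes the median was 0.918, against 1.00. Here 2 members, POLD1 and POLE, were at least 1.5-fold higher, against 11.2% of all genes, and none lower, against 14.5%. FEN1, LIG1, POLD1, POLE and RPA3 had under 100 counts in lysate and passed only through a bound library, which favours ratios above 1. With a mean of 100 counts over the 3 libraries, a filter chosen after the data were seen, 15 members remained with a median of 0.912 in eIF3B-bound and 0.918 in eIF3E-bound footprints. The members past 1.5-fold stayed the ones just named, against 14.1% of 2829 genes higher and 16.6% lower in eIF3B-bound, and 8.91% and 13.9% in eIF3E-bound footprints. This filter does not remove the bias: POLE (93 lysate counts) and POLD1 (96) reached the mean through the bound libraries. That they stayed at least 1.5-fold higher is no check.

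The MCM subunits divided in the eIF3B-bound library. MCM6 was at 172 CPM in lysate and 76.2 CPM in eIF3B-bound footprints, a ratio of 0.442 (exact 95% interval 0.348 to 0.559). MCM4 went from 210 to 110 CPM, a ratio of 0.523 (0.427 to 0.640), and MCM3 from 240 to 134 CPM, a ratio of 0.560 (0.465 to 0.673). MCM7 was on the other side, at 245 and 349 CPM with a ratio of 1.42 (1.23 to 1.65), and the intervals of MCM2 (1.14) and MCM5 (1.13) held 1. The products of these subunits sit in equal numbers in 1 ring. In the eIF3E-bound library the ratios were 0.703 (0.577 to 0.857) for MCM6, 0.846 (0.722 to 0.993) for MCM3, 1.02 for MCM4 and 1.28 (1.11 to 1.49) for MCM7.

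POLE, on 93 lysate counts, lay above 1 in both bound libraries, and POLD1, on 96, on opposite sides of 1. POLE was at 75.9 CPM in lysate, 132 CPM in eIF3B-bound and 114 CPM in eIF3E-bound footprints, with ratios of 1.74 (1.35 to 2.26) and 1.5 (1.16 to 1.94). POLD1 was at 78.4, 46.7 and 122 CPM, with ratios of 0.595 (0.430 to 0.821) and 1.55 (1.21 to 2.0), so its intervals lay on opposite sides of 1. RRM1 was at 0.704 (0.596 to 0.830) in eIF3B-bound and 0.895 (0.770 to 1.04) in eIF3E-bound footprints, and PCNA at 1.04 (0.838 to 1.30) and 0.791 (0.631 to 0.992). The eIF3B-bound library had fewer genes at low counts, with 710 genes at 1 to 5 counts against 1781 in the lysate and 1437 in the eIF3E-bound library, and 10667 genes at 0 against 8875 and 9005. The part of this in the ratios was not tested. Members with few counts showed it too: ORC6 had 19, 2 and 15 counts in lysate, eIF3B-bound and eIF3E-bound footprints, GINS1 17, 0 and 5, and GINS4 14, 57 and 27.

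**Figure D5:**
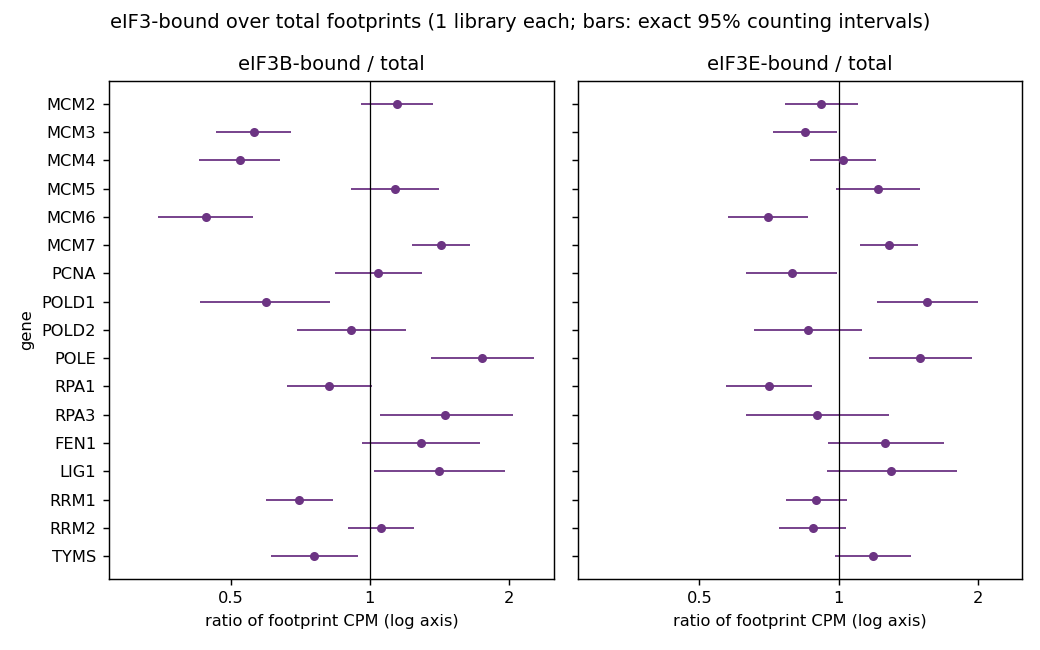
Ratio of eIF3B-bound (left) and eIF3E-bound (right) to lysate footprint CPM (horizontal log axis) for 17 replication genes, 1 library each, with exact 95% counting intervals. MCM3, MCM4, MCM6 and POLD1 lie furthest below 1 on the left, and POLD1 and POLE furthest above 1 on the right.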

How the data were processed

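The 39 genes and the other lists were chosen with earlier results of these data known. Read counts per gene symbol were used as the authors deposited them, for 6 total RNA and 9 footprint libraries. The tools named in the submitters' processing notes are HTSeq, STAR 2.5, Bowtie 1.1.2 and cutadapt 1.18, on hg38 or GRCh38. Their order, the annotation and the strand setting are not stated here, so reads of overlapping, antisense or near-identical genes cannot be told apart. Per the labels' protocols, footprints of 26 to 34 nt came from 5 OD260 units of lysate after 45 min with RNase I (450 units). Per-sample columns without a sample numbered 0.

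All genes entered edgeR 4.0.16 under R 4.3.3 (a filterByExpr minimum of 10 counts, TMM scaling, robust quasi-likelihood F test, two-sided, Benjamini-Hochberg adjustment over all genes tested, threshold 0.05). Total RNA and footprints were fitted apart with siRNA as the only term, and footprints per mRNA as the interaction over 12 libraries. CPM use TMM-scaled library totals. Where bound footprints are set against lysate, the TMM factors are relative to lysate and scaled both the CPM and the ratios. Intervals at 95% are exact (Poisson or conditional binomial) and, like floors of 3 counts, cover counting error only. The calling steps were also run on simulated data with the same spread for every gene of an assay, unlike the real libraries. The outcome is not given here and no result rests on it. Motifs and sequences come from RefSeq GRCh38.p14 promoter windows. Every member is accounted for: members called in an assay are given in every library of that assay, others by their change or counts, and of each other list up to 3 called genes with the smallest adjusted p per assay are named. Alternatives were DESeq2 1.42.0 size factors and Wald test, total-count scaling, other TMM gene sets, no filter or a minimum count of 50, limma-voom (limma 3.58.1), replicate blocks and leaving out each library; a 7SL RNA term, the lysate comparison with its alternatives and other count filters for the single libraries were added after the data were seen. Same-numbered siRNA libraries did not deviate together (correlations −0.0324 to 0.0306). Levels between subunits per coding length were not computed, as no coding lengths were at hand.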

Additional observations from a re-analysis of the deposited data

How the results depend on the processing

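No member reversed its direction among called results in any alternative. In total RNA the number of members that rose was 7 with a minimum count of 50, which leaves fewer genes to test, and otherwise 8 with the DESeq2 Wald test to 14 with total-count scaling; leaving out 1 library gave 7 to 11. The number that fell was 0 with total-count scaling and 1 to 2 with 1 library left out. Total-count scaling moved the median of all genes by 0.16 (log2), and 70.4% of all called genes were then higher, against 50.1%. In footprints the number that rose was 0 with total-count scaling, no filter, a minimum count of 50 and the replicate block, 3 with limma-voom (MCM3 and FEN1 beside ORC6), and 0 to 1 with 1 library left out. In footprints per mRNA 1 member, MCM2, fell with total-count scaling (−1.66, adjusted p = 0.0404) and with the DESeq2 Wald test (adjusted p = 0.0387). There total-count scaling moved the median of all genes by −0.21, and 3.26% of called genes were higher, against 46.4%. Over all genes footprints per mRNA gave 13 higher and 15 lower calls, 84 and 61 with the Wald test, 3 and 89 with total-count scaling, and none without total RNA library 2 of the controls or 3 of the eIF3e siRNA group. The causes were not tested.

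Whether the replicate numbers pair total RNA with footprint libraries was not settled, and the main tests used no pairing. Libraries of 1 number correlated at 0.143, 0.00166 and 0.126 in control and at 0.0407, 0.0457 and 0.0442 in eIF3e siRNA. With the replicate number as a block 12 members rose in total RNA (POLD3 gained, adjusted p = 0.0469), 2 fell, and ORC6 footprints lost their call (adjusted p = 0.0538). With siRNA and number as the block, footprints per mRNA gave 98 higher and 68 lower calls over all genes and none among members. The lysate comparison gave 17 members at least 2-fold higher with each control left out in turn (of 25, 25 and 24). Over all genes the share was then 17.2%, 18.0% and 19.3%. Of the 18 members with 50 counts in a control library 11 were at least 2-fold higher, against 11.8% of all genes. With total-count scaling 22 members were, against 30.2% of all genes, which shifted to a median ratio of 1.36. The eIF3B-bound median was 0.912 with a mean of 100 counts over the 3 libraries. With a minimum of 200 counts it was 0.719 with 0 members at least 1.5-fold higher, and 1 member was higher in eIF3E-bound footprints. With the 7SL term 10 members rose and 2 fell, and POLE lost its call (adjusted p = 0.209). Depth limits the GINS subunits, POLE2, PRIM2 and MCM10.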
